A study of Mus musculus with 16 samples.

Results

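The cytosolic aminoacyl-tRNA synthetases and the amino acid genes linked to the transcription factor ATF4 were described from bulk RNA-seq libraries of hematopoietic stem cells (HSCs) sorted from mouse bone marrow. The set holds 39 named genes, found by symbol among the 25239 genes of the deposited count table. They are 18 cytosolic synthetases, 5 amino acid transporters, 8 enzymes of serine, asparagine, proline and mitochondrial one-carbon metabolism, the stress transcription factors Atf4, Atf5 and Ddit3, the stress genes Trib3, Chac1, Sesn2 and Ddit4, and the lipoprotein receptor gene Vldlr. Of these, 38 matched by symbol and Mars was found as Mars1 through its RefSeq synonym. All 39 passed the filter on low counts that left 14124 genes for testing.

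The study compared HSCs from mice of 4 to 6 months carrying a knockout of Selp (SelpKO, here KO) or the intact gene (SelpWT, here WT). Selp encodes P-selectin, and PSGL-1 is a ligand of that adhesion protein. The 16 libraries fall into 6 groups, namely KO with PSGL-1 (3 libraries), WT with PSGL-1 (2), KO with vehicle (3), WT with vehicle (3), KO fresh (2) and WT fresh (3). Cultured cells of both genotypes were kept in StemSpan medium with penicillin, streptomycin, fetal calf serum and the cytokines SCF, IL-11 and Flt-3 ligand, and PSGL-1 was given at 125 ng/mL for 24 h, while no duration is given for the vehicle cultures. Fresh cells were sequenced after sorting without culture, so the vehicle-to-fresh comparison takes in medium, serum, cytokines and time together. The labels do not say whether replicates were separate mice or how the knockout was made, so the tests measure the spread between these libraries.

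Aminoacyl-tRNA synthetases attach each amino acid to its tRNA and so feed the ribosome. When amino acids run short or the endoplasmic reticulum is stressed, kinases phosphorylate the initiation factor eIF2 alpha, which lowers translation in general and favours translation of ATF4. ATF4 then raises transcription of synthetases, amino acid transporters and biosynthetic enzymes, and, with DDIT3 (CHOP), of genes such as Trib3 and Chac1. HSCs in the marrow are known for a low rate of protein synthesis.

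ATF4 and its CEBP partners are known to bind the CEBP-ATF response element, searched here as TGATGNAA on both strands in RefSeq windows (GRCm38.p6) that run from 250 bases before to 50 bases after an annotated start. It was found in 10 of the 30 members with a window, or 33.3%, and in 4.51% of all 27025 genes with one. The 10 were Aars, which holds 2 matches, Gars, Iars, Tars, Yars, Trib3, Chac1, Asns, Pycr1 and Vldlr. The windows of the 4 with the smallest adjusted p for vehicle culture over fresh are printed to show where the element lies. All are on the plus strand, with the matches in capitals (in each case the element read from the opposite strand). The windows lie at chr19:27216770-27217069 (Vldlr), chr8:111033592-111033891 (Aars), chr6:55037751-55038050 (Gars) and chr13:49681880-49682179 (Iars).
Vldlr: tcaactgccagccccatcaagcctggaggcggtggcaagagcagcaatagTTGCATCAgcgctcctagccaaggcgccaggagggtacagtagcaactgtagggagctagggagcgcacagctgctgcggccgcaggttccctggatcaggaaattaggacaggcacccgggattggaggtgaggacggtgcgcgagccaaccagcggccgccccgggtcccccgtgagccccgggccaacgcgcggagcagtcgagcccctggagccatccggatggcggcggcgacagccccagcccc
Aars: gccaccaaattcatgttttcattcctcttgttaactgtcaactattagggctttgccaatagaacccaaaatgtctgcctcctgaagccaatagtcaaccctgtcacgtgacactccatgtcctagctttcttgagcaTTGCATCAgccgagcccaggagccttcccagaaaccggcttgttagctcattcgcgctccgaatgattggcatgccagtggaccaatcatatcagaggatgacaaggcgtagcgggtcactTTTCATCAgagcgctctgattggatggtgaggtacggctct
Gars: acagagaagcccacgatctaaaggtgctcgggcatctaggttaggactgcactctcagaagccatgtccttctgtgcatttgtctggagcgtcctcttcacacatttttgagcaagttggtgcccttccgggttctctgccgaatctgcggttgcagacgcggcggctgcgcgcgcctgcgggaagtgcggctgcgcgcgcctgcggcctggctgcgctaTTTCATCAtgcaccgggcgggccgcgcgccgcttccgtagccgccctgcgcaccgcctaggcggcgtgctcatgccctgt
Iars: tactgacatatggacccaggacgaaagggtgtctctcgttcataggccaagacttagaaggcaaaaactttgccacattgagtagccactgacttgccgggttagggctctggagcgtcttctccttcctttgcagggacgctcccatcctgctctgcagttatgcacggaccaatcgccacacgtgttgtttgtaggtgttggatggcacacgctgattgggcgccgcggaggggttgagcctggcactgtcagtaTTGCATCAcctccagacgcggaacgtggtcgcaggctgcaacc
A match is a description of these letters only, and ATF4 binding was not measured. Of the 10 members with a match, 5 rose in vehicle culture by the test described below (Aars, Gars, Iars, Asns and Vldlr), as did 3 of the 20 with a window and no match (Mars, Mthfd2 and Slc7a1). The remaining 9 had no window, and 5 of them rose. Of all genes tested 4.18% rose, and the difference between these groups of members was not tested.

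Levels are in CPM, a gene's count as a part of its library's total count, scaled alike in all libraries. They are shares of a library and cannot be compared between genes of different length. Library totals were 12590539 to 24690824 counts, so 3 counts correspond to 0.122 to 0.238 CPM. Selp was at 0 to 12.4 CPM in the 8 KO libraries and 16.8 to 183 CPM in the 8 WT libraries. Replicate 1 of WT with PSGL-1 stands apart, with 9035 genes detected against 11101 to 13480 in the other 15 libraries and 4 members (Atf5, Ddit3, Trib3 and Sesn2) at 0. The HSC marker list (10 genes) had single markers at 0 in some cultured libraries (Slamf1, Tek and Fgd5), and summed to 1243 to 2070 CPM in the cultured libraries and 2144 to 2862 CPM in the fresh ones. Differences were tested with edgeR's quasi-likelihood test over all 16 libraries and called at a Benjamini-Hochberg adjusted p under 0.05.

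HSCs cultured with vehicle held a larger share of mRNA of synthetases and amino acid transporters than fresh HSCs, in both genotypes. Averaged over the genotypes, 13 of the 39 members rose and none fell, where 4.18% of all genes tested rose and 2.3% fell (6.48% called in either direction). The risers were 7 of 18 synthetases (Aars, Mars, Gars, Iars, Lars, Nars and Wars), 3 of 5 transporters (Slc7a1, Slc7a5 and Slc1a5), 2 of 8 enzymes (Asns and Mthfd2) and Vldlr. None of the 3 stress transcription factors and none of the 4 stress genes passed the test. The median log2 fold change over the members was 0.59, against -0.07 over all genes tested, and 34 of 39 members lay above 0 where 46.8% of all genes did. The members were chosen with earlier results of these data known, and all genes tested were not matched to them for level. The shares are therefore a description, and the members were not tested as a set.

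The sum over all 39 members was 7397, 6960 and 7663 CPM in KO vehicle libraries, against 4193 and 5146 CPM in KO fresh libraries. In WT it was 7730, 8112 and 8002 CPM with vehicle and 5406, 5710 and 5726 CPM fresh. Every vehicle library lay above every fresh library. Singly, 10 members did so (Aars, Gars, Mars, Wars, Yars, Mthfd2, Slc7a1, Slc7a5, Slc1a5 and Vldlr), where 3.84% of all genes tested did. The 18 synthetases together averaged 4237 ± 317 CPM in KO vehicle cultures and 2600 ± 581 CPM in KO fresh cells, and 4471 ± 180 CPM in WT vehicle cultures and 3172 ± 274 CPM in WT fresh cells (SD, n = 3, 2, 3 and 3). The transporters ranged from 986 to 1219 CPM over the 6 vehicle libraries and from 699.6 to 928 CPM over the 5 fresh ones, without overlap. The enzymes overlapped, at 1338 to 1841 CPM with vehicle and 967 to 1339 CPM fresh. A sum gives most weight to the members with most reads, and in bulk RNA more cells of one type cannot be told apart from more of this mRNA per cell.

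**Figure D1:**
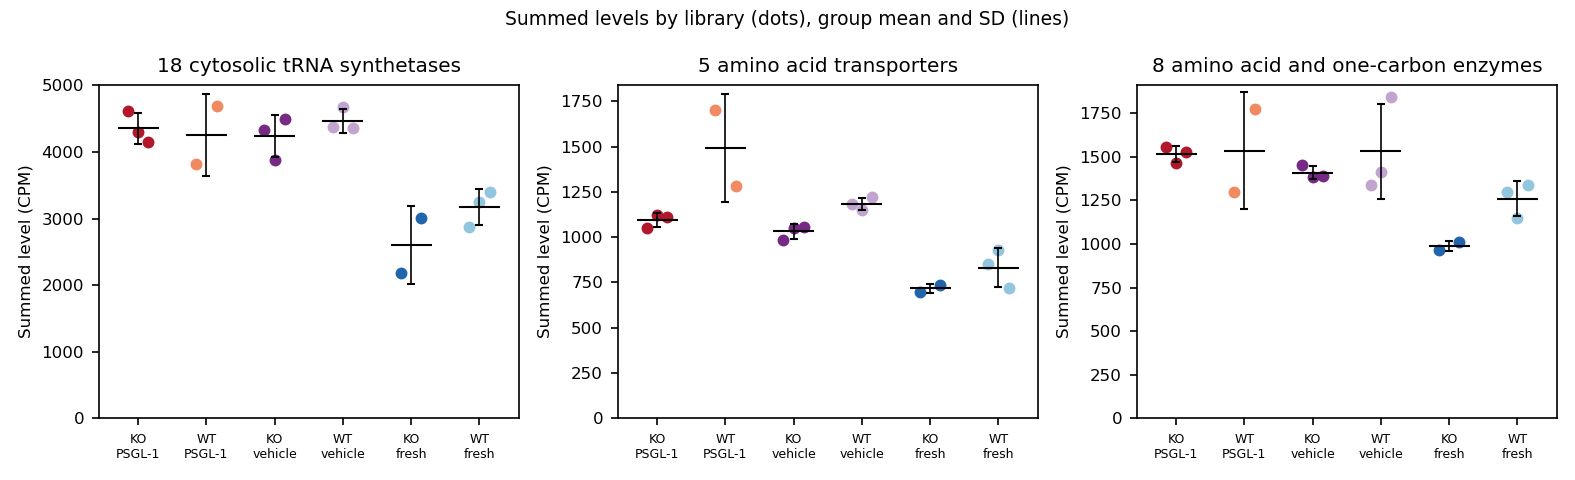
Summed level in CPM (vertical axis) of the synthetases, the transporters and the enzymes in the 6 groups (horizontal axis), with a dot per library and lines for the group mean and SD. For synthetases and transporters the 11 cultured libraries lie above the 5 fresh ones, while the enzymes overlap.

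With the genotypes fitted separately, the test found 4 members higher in KO (Aars, Mars, Slc7a1 and Vldlr) and 7 in WT (Aars, Gars, Nars, Wars, Slc7a1, Slc7a5 and Vldlr), and none lower in either. In each genotype 1.23% of all genes tested rose, and 0.538% fell in KO and 0.404% in WT (1.77% called either way in KO and 1.64% in WT). Aars, Slc7a1 and Vldlr were called in both. The test of the difference itself, the culture response in KO minus that in WT, called 0 members and 0% of all genes, and DESeq2 and limma also called 0 members. At an unadjusted p under 0.05 it had 2 members, against 2.5% of all genes. The counts in single genotypes moved with the libraries in the fit, from 2 to 8 in KO and from 1 to 9 in WT when 1 of the 16 libraries was left out, and the count on the mean of the genotypes from 10 to 19. Without either WT PSGL-1 library, which enter through the shared estimate of the spread, the counts were 8 in KO, 9 in WT and 19 on the mean. The shares of all genes called in these fits are not given here, and those above belong to the fit on all libraries. Over these 16 fits the KO calls held in 16 for Vldlr and Aars, 15 for Mars and 13 for Slc7a1, and the WT calls in 16 for Vldlr, 15 for Gars, 12 for Aars, 11 for Slc7a5, 7 for Nars, 6 for Slc7a1 and 3 for Wars.

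**Figure D2:**
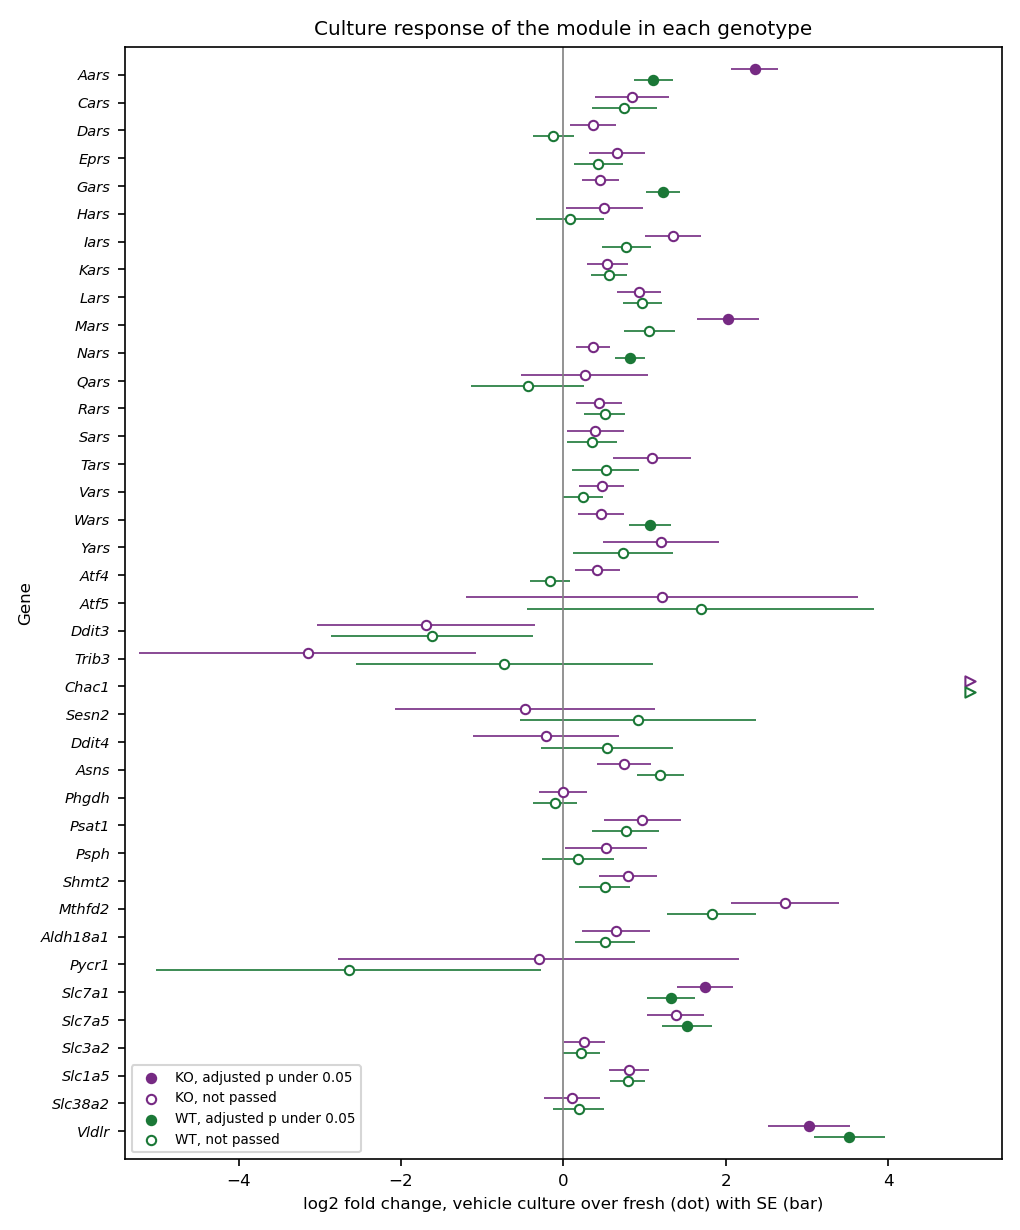
Log2 fold change of vehicle culture over fresh (horizontal axis, dot, with SE as a bar) for each member (vertical axis), KO above WT, filled where the adjusted p was under 0.05. Most dots lie right of 0, Ddit3 and Trib3 lie left of it with wide bars, and the arrows of Chac1 mark values past the right end of the axis.

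Vldlr, which encodes a receptor that takes up lipoproteins and is a known target of the ATF4 arm of the stress response, had the largest difference among the called members. It lies at chr19:27216480-27254231 (GRCm38.p6, as all coordinates here). It stood at 415, 300.1 and 478 CPM in KO vehicle libraries, against 16.3 and 87.3 CPM in KO fresh libraries. In WT it stood at 632, 534 and 336 CPM with vehicle and 54.2, 45.4 and 40.0 CPM fresh. The lowest cultured library was thus above the highest fresh one, and the KO fresh libraries were far apart. On the mean of the genotypes Vldlr was 9.65-fold higher (log2 fold change 3.27, SE 0.34, adjusted p = 4.31e-05), with a log2 fold change of 3.02 in KO (adjusted p = 0.00603) and 3.52 in WT (adjusted p = 0.000582). With KO fresh replicate 1 left out the log2 fold change was 2.27 in KO. With KO fresh replicate 2 left out it was 4.60 in KO and 4.06 on the mean. With only the compared groups in the fit the adjusted p in KO was 0.0614.

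Among the synthetases, Aars (alanyl-tRNA synthetase, chr8:111027778-111055569) had the largest rise on the mean of the genotypes and in KO, while in WT that of Gars was larger. It had 291, 288 and 357 CPM in KO vehicle libraries, against 59.4 and 65.4 CPM in KO fresh libraries, and 346, 242 and 342 CPM in WT vehicle libraries, against 190.4, 107 and 163 CPM in WT fresh libraries. The vehicle groups sat at one level, and the KO fresh libraries were the lowest of the 16. The rise was 3.32-fold on the mean of the genotypes (log2 fold change 1.73, SE 0.19, adjusted p = 5.09e-05), with log2 fold changes of 2.36 in KO (adjusted p = 0.000556) and 1.11 in WT (adjusted p = 0.0268). In the GENCODE M21 annotation 14.3% of Aars exon bases are shared with Exosc6 on the same strand, so reads there cannot be assigned to one gene.

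Mars (methionyl-tRNA synthetase, chr10:127296221-127311786) had 263, 192 and 349 CPM in KO vehicle libraries, against 42.8 and 93.7 CPM in KO fresh libraries. In WT it had 241, 301 and 319 CPM with vehicle and 179, 121 and 142 CPM fresh. Vehicle and fresh libraries did not overlap, and the KO fresh pair was again lowest. Mars was 2.92-fold higher on the mean (log2 fold change 1.55, SE 0.25, adjusted p = 0.00127), and it passed the test in KO (log2 fold change 2.03, adjusted p = 0.0118) but not in WT (1.06, adjusted p = 0.139). The KO value was 1.60 without KO fresh replicate 1, which ended the call (adjusted p = 0.172), and 2.64 without KO fresh replicate 2. Mars shares 68 exon bases, or 1.99% of its own, with Ddit3 on the opposite strand.

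Gars (glycyl-tRNA synthetase, chr6:55038001-55079504) had 277, 244 and 344 CPM in KO vehicle libraries, against 221 and 208 CPM in KO fresh libraries. WT values were 371, 294 and 340.2 CPM with vehicle and 187, 133 and 138 CPM fresh. Vehicle libraries lay above fresh ones without overlap, but the gap was narrow in KO, where fresh cells were higher than in WT. The mean rise was 1.79-fold (log2 fold change 0.84, SE 0.16, adjusted p = 0.00381), called in WT (log2 fold change 1.23, adjusted p = 0.00629) and not in KO (0.45, adjusted p = 0.484).

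Iars, Lars, Nars and Wars charge isoleucine, leucine, asparagine and tryptophan. Iars had 209, 238 and 271 CPM in KO vehicle libraries, against 65.4 and 130.0 CPM in KO fresh libraries, and 229, 378 and 173 CPM in WT vehicle libraries, against 127, 194 and 164 CPM in WT fresh libraries. Its WT groups overlapped and its KO groups did not, and the mean rise was 2.09-fold (log2 fold change 1.06, SE 0.23, adjusted p = 0.010). Lars had 261, 175 and 216 CPM in KO vehicle libraries, against 96.7 and 138 CPM in KO fresh libraries, and 292, 393 and 235 CPM in WT vehicle libraries, against 183, 152 and 165 CPM in WT fresh libraries. Within each genotype its groups did not overlap, and the mean rise was 1.93-fold (log2 fold change 0.95, SE 0.18, adjusted p = 0.00501).

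Nars had 205, 281 and 229 CPM in KO vehicle libraries, against 209.8 and 165 CPM in KO fresh libraries, and 269, 309 and 282 CPM in WT vehicle libraries, against 178, 171 and 171 CPM in WT fresh libraries. The KO groups overlapped, and Nars had the smallest rise among those called, 1.51-fold (log2 fold change 0.59, SE 0.14, adjusted p = 0.0181). Wars had 162, 172 and 172 CPM in KO vehicle libraries, against 124 and 127 CPM in KO fresh libraries, and 331, 228 and 187 CPM in WT vehicle libraries, against 85.2, 153 and 143 CPM in WT fresh libraries. One WT vehicle library was well above the rest, and the mean rise was 1.7-fold (log2 fold change 0.76, SE 0.19, adjusted p = 0.0254). These calls were less stable: leaving out 1 library moved the adjusted p to as much as 0.074 for Iars, 0.0637 for Nars and 0.092 for Wars, while Lars stayed under 0.05 in all 16 such fits.

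The other 11 synthetases did not pass the test on the mean of the genotypes. Their log2 fold changes were 0.97 for Yars, 0.81 for Tars, 0.80 for Cars, 0.55 for Kars, 0.54 for Eprs, 0.47 for Rars, 0.37 for Sars, 0.36 for Vars, 0.29 for Hars, 0.12 for Dars and -0.09 for Qars, with adjusted p from 0.0704 to 1. Of all 18, 17 lay above 0. Yars, the tyrosyl enzyme, had 167, 198 and 259 CPM in KO vehicle libraries, against 92 and 93.3 CPM in KO fresh libraries, and 186, 153 and 186 CPM in WT vehicle libraries, against 92.3, 119 and 127 CPM in WT fresh libraries. Its vehicle and fresh libraries did not overlap, and its test (SE 0.47, adjusted p = 0.271) used a spread that takes in the 9.61 CPM of WT PSGL-1 replicate 1. With either WT PSGL-1 library left out, the sparse one or the other, Yars, Tars, Kars, Psat1 and Shmt2 were called higher and Ddit3 lower.

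**Figure D3:**
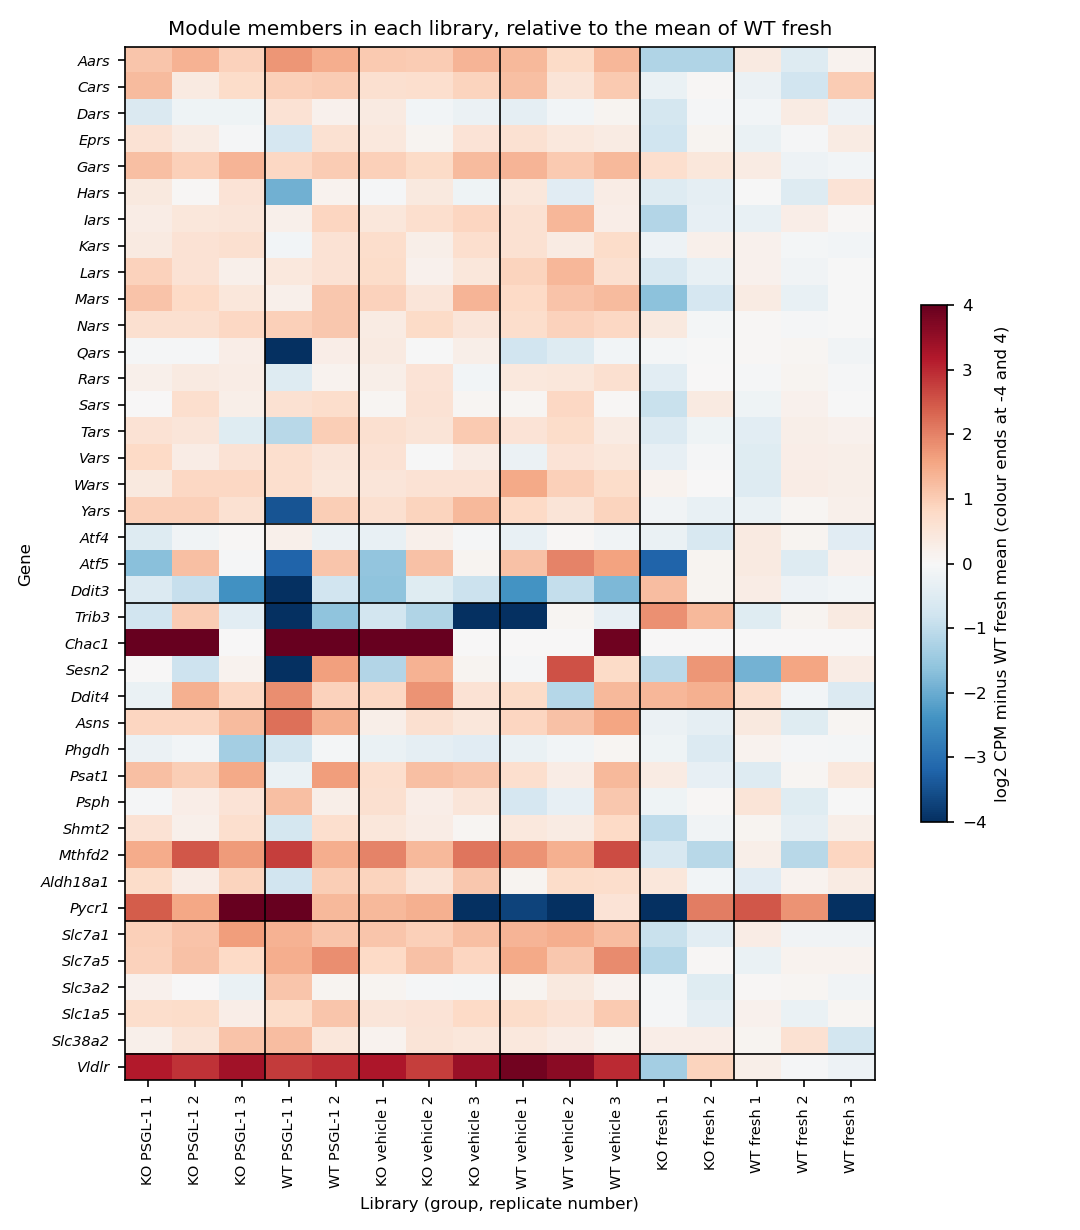
Log2 CPM of each member (rows, by role) in each library (columns), minus the mean of WT fresh, with colour ends at -4 and 4. Most synthetases, transporters and Vldlr are red in the 11 cultured libraries, while the stress members and WT PSGL-1 replicate 1 vary most.

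The transporters bring in the amino acids that the synthetases use. Slc7a1 (CAT1, arginine and lysine, chr5:148327410-148399904) had 87.5, 77.7 and 93.4 CPM in KO vehicle libraries, against 21 and 32.2 CPM in KO fresh libraries. WT libraries had 103, 109.9 and 91.6 CPM with vehicle and 52.4, 39 and 38.2 CPM fresh. The vehicle libraries were close together and above every fresh library, by 2.9-fold on the mean (log2 fold change 1.54, SE 0.23, adjusted p = 0.000695), with log2 fold changes of 1.74 in KO (adjusted p = 0.0141) and 1.33 in WT (adjusted p = 0.0326).

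Slc7a5 (LAT1, the light chain of the transporter for leucine and other large neutral amino acids, chr8:121881146-121907686) had 146, 187 and 151 CPM in KO vehicle libraries, against 36.2 and 93 CPM in KO fresh libraries, and 238, 175 and 298 CPM in WT vehicle libraries, against 71.9, 98.6 and 95.3 CPM in WT fresh libraries. Vehicle and fresh libraries did not overlap, and the mean rise was 2.73-fold (log2 fold change 1.45, SE 0.23, adjusted p = 0.00123). Its heavy chain Slc3a2 had 332, 299 and 291 CPM in KO vehicle libraries, against 283 and 238 CPM in KO fresh libraries, and 329.5, 407 and 327 CPM in WT vehicle libraries, against 334, 349.7 and 293 CPM in WT fresh libraries. The WT groups overlapped, and Slc3a2 did not pass (log2 fold change 0.24, SE 0.17, adjusted p = 0.504). The difference between these chains was not tested.

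Slc1a5 (ASCT2, a glutamine and neutral amino acid exchanger, chr7:16781334-16798274) had 219, 229 and 274 CPM in KO vehicle libraries, against 147 and 133 CPM in KO fresh libraries, and 265, 235 and 312 CPM in WT vehicle libraries, against 186, 141 and 176 CPM in WT fresh libraries. The groups did not overlap, and the mean rise was 1.74-fold (log2 fold change 0.80, SE 0.16, adjusted p = 0.00693). Slc38a2 (SNAT2), a classical target of amino acid shortage, ranged from 190.3 to 258 CPM over the vehicle libraries and from 116 to 299.99 CPM over the fresh ones (log2 fold change 0.15, SE 0.24, adjusted p = 0.845).

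Mthfd2, the mitochondrial enzyme that oxidises one-carbon units on folate (chr6:83305704-83326011), had 70.1, 43.1 and 78.3 CPM in KO vehicle libraries, against 10.9 and 8.6 CPM in KO fresh libraries, and 60.9, 47.7 and 103 CPM in WT vehicle libraries, against 21.8, 8.74 and 33.6 CPM in WT fresh libraries. No vehicle library overlapped a fresh one, and the mean rise was 4.85-fold (log2 fold change 2.28, SE 0.43, adjusted p = 0.00469), though neither genotype passed alone (adjusted p = 0.0539 in KO and 0.139 in WT). Asns (asparagine synthetase, chr6:7675165-7693209) had 80.6, 108 and 93.2 CPM in KO vehicle libraries, against 56.8 and 57.7 CPM in KO fresh libraries, and 126, 155 and 198 CPM in WT vehicle libraries, against 93.9, 53.4 and 76.9 CPM in WT fresh libraries. Within each genotype its groups did not overlap, and the mean rise was 1.96-fold (log2 fold change 0.97, SE 0.22, adjusted p = 0.0152), with an adjusted p of 0.0586 without KO fresh replicate 1.

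No enzyme of the serine pathway was called on the mean of the genotypes, and differences between these enzymes were not tested. Phgdh, its first enzyme, had a log2 fold change of -0.05 (SE 0.20, adjusted p = 0.976), with 421, 395 and 364 CPM in KO vehicle libraries, against 432 and 369 CPM in KO fresh libraries, and 422, 463 and 507 CPM in WT vehicle libraries, against 574, 528 and 499 CPM in WT fresh libraries. The next enzymes of the pathway, Psat1 and Psph, had log2 fold changes of 0.87 (adjusted p = 0.128) and 0.35 (adjusted p = 0.658). Shmt2, which turns serine into glycine in mitochondria, had 0.65 (adjusted p = 0.127). Psat1 and Shmt2 were called higher by limma and with only the vehicle and fresh groups in the fit. Of the proline enzymes, Aldh18a1 had 0.58 (adjusted p = 0.265) and Pycr1 -1.47 with an SE of 1.67 (adjusted p = 0.729), its libraries being at 0 to 6.23 CPM with vehicle and 0 to 13.6 CPM fresh.

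**Figure D4:**
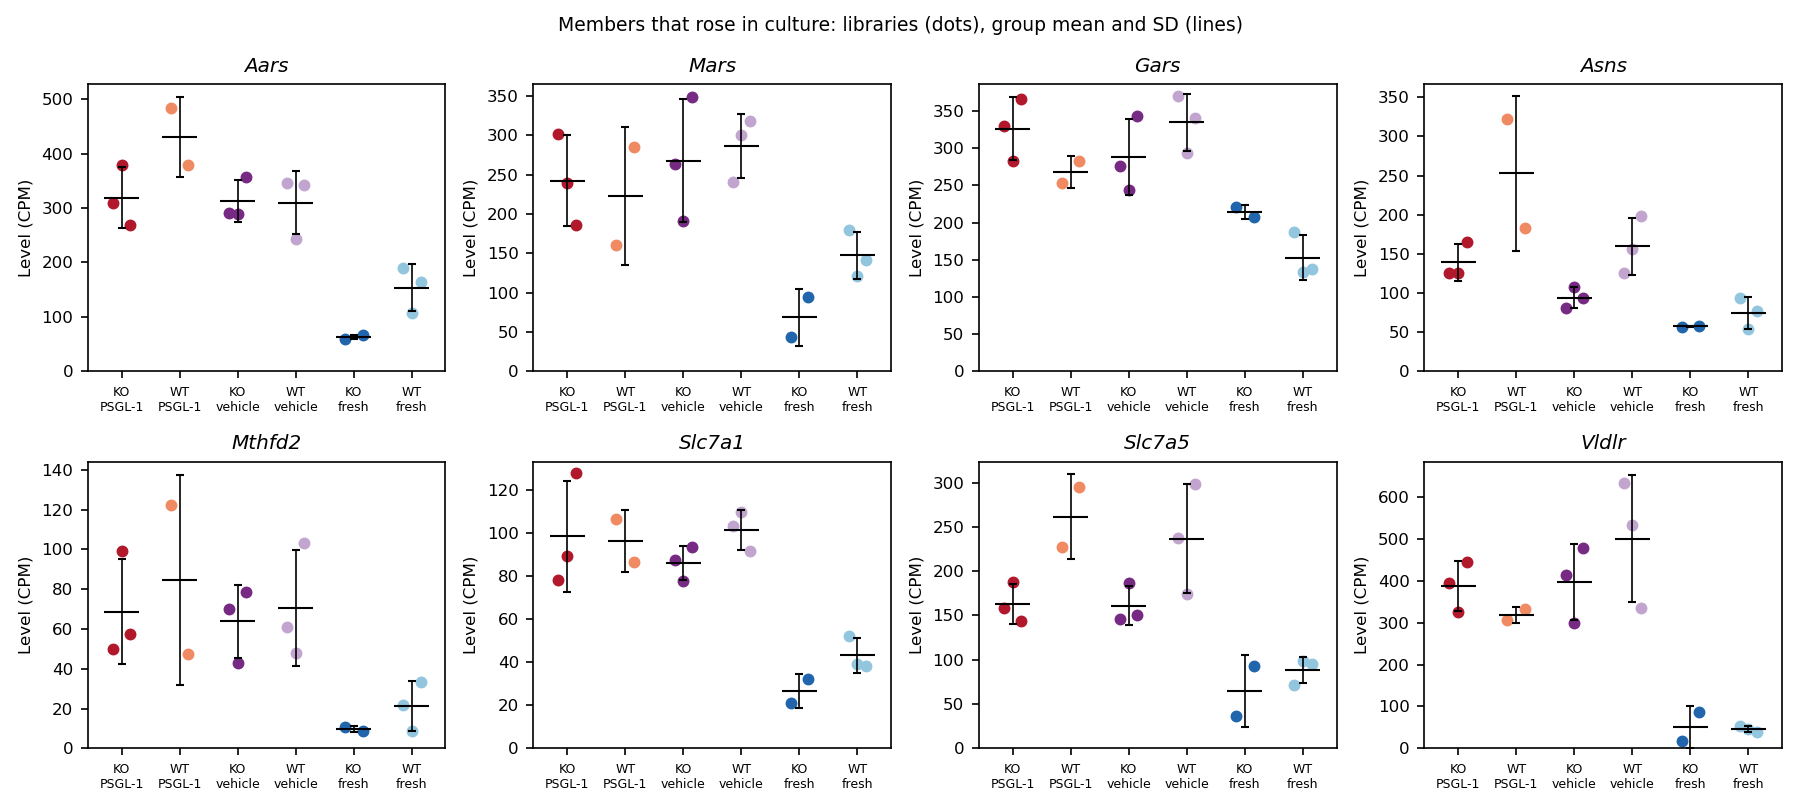
Level in CPM (vertical axis) of 8 of the 13 members called higher in vehicle culture, by group (horizontal axis), with a dot per library and lines for the group mean and SD (cut at 0). The cultured groups, with or without PSGL-1, have higher means than the fresh groups in each panel, and Aars and Mars are lowest in KO fresh libraries.

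None of the stress regulators was called by the main test, and their fitted values lay on both sides of 0. Atf4 itself (chr15:80255184-80257545) had 159, 226 and 191 CPM in KO vehicle libraries, against 157 and 135 CPM in KO fresh libraries, and 159, 203 and 172 CPM in WT vehicle libraries, against 263, 225 and 151 CPM in WT fresh libraries. The ranges overlapped, and the log2 fold change was 0.13 with a 95% interval of -0.27 to 0.52 (adjusted p = 0.818). ATF4 is controlled mainly through translation, and protein was not measured.

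Ddit3 (CHOP, chr10:127290793-127296291) had 10.6, 23.2 and 17.8 CPM in KO vehicle libraries, against 74.2 and 37.8 CPM in KO fresh libraries, and 6.11, 16.9 and 8.83 CPM in WT vehicle libraries, against 41.6, 30.7 and 32.1 CPM in WT fresh libraries. Of its exon bases 3.97% are shared with Mars. It was the only member for which every vehicle library lay below every fresh one, as did 5.72% of all genes tested. The main test did not call it (log2 fold change -1.66, SE 0.91, adjusted p = 0.344). Its log2 fold change stayed near that value when other settings called it. The values were -1.79 with limma (adjusted p = 0.0299) and -1.65 with only the vehicle and fresh groups in the fit (0.0252). With either WT PSGL-1 library left out the log2 fold change was -1.65.

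Trib3, a pseudokinase induced by ATF4 and CHOP, had 9.73, 7.05 and 0 CPM in KO vehicle libraries, against 56.5 and 43.6 CPM in KO fresh libraries, and 0, 17.5 and 12.5 CPM in WT vehicle libraries, against 12.2, 19 and 22.2 CPM in WT fresh libraries. The KO groups did not overlap and the WT groups did, and it was not called (log2 fold change -1.94, SE 1.38, adjusted p = 0.501). Chac1, which breaks down glutathione and is a known ATF4 target, was at 0 in all 5 fresh libraries. It had 3.42, 6.75 and 0 CPM in KO vehicle libraries and 0, 0 and 1.61 CPM in WT vehicle libraries. Against the floor of 3 counts per fresh library, the vehicle mean was at least 19.6-fold higher in KO and at least 2.39-fold higher in WT. However, 3 of the 6 vehicle libraries were also at 0, and the main test did not call Chac1 (adjusted p = 0.146). Of the 8 alternatives that leave no library out, only DESeq2 called it higher on the mean of the genotypes. The members' medians, 0.54 in KO and 0.56 in WT, were the same with Chac1 at these bounds.

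Atf5, Sesn2 and Ddit4 varied widely within groups. Atf5, another stress transcription factor, was under 5 CPM in all 16 libraries (log2 fold change 1.45, SE 1.62, adjusted p = 0.723). Sesn2, which restrains mTORC1 when leucine is low, had 6.83, 40.7 and 16.8 CPM in KO vehicle libraries, against 7 and 56.3 CPM in KO fresh libraries, and 14.9, 90.8 and 25.3 CPM in WT vehicle libraries, against 4.3, 49.96 and 20.0 CPM in WT fresh libraries (log2 fold change 0.23, SE 1.08, adjusted p = 0.994). Ddit4 (REDD1), another restraint on mTORC1, had 18.4, 36.2 and 15.4 CPM in KO vehicle libraries, against 25.2 and 30.2 CPM in KO fresh libraries, and 17.7, 4.67 and 24.5 CPM in WT vehicle libraries, against 17.1, 10.3 and 7.37 CPM in WT fresh libraries (log2 fold change 0.16, SE 0.61, adjusted p = 0.975). With SEs this large, the data hold neither a change nor its absence for these genes.

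**Figure D5:**
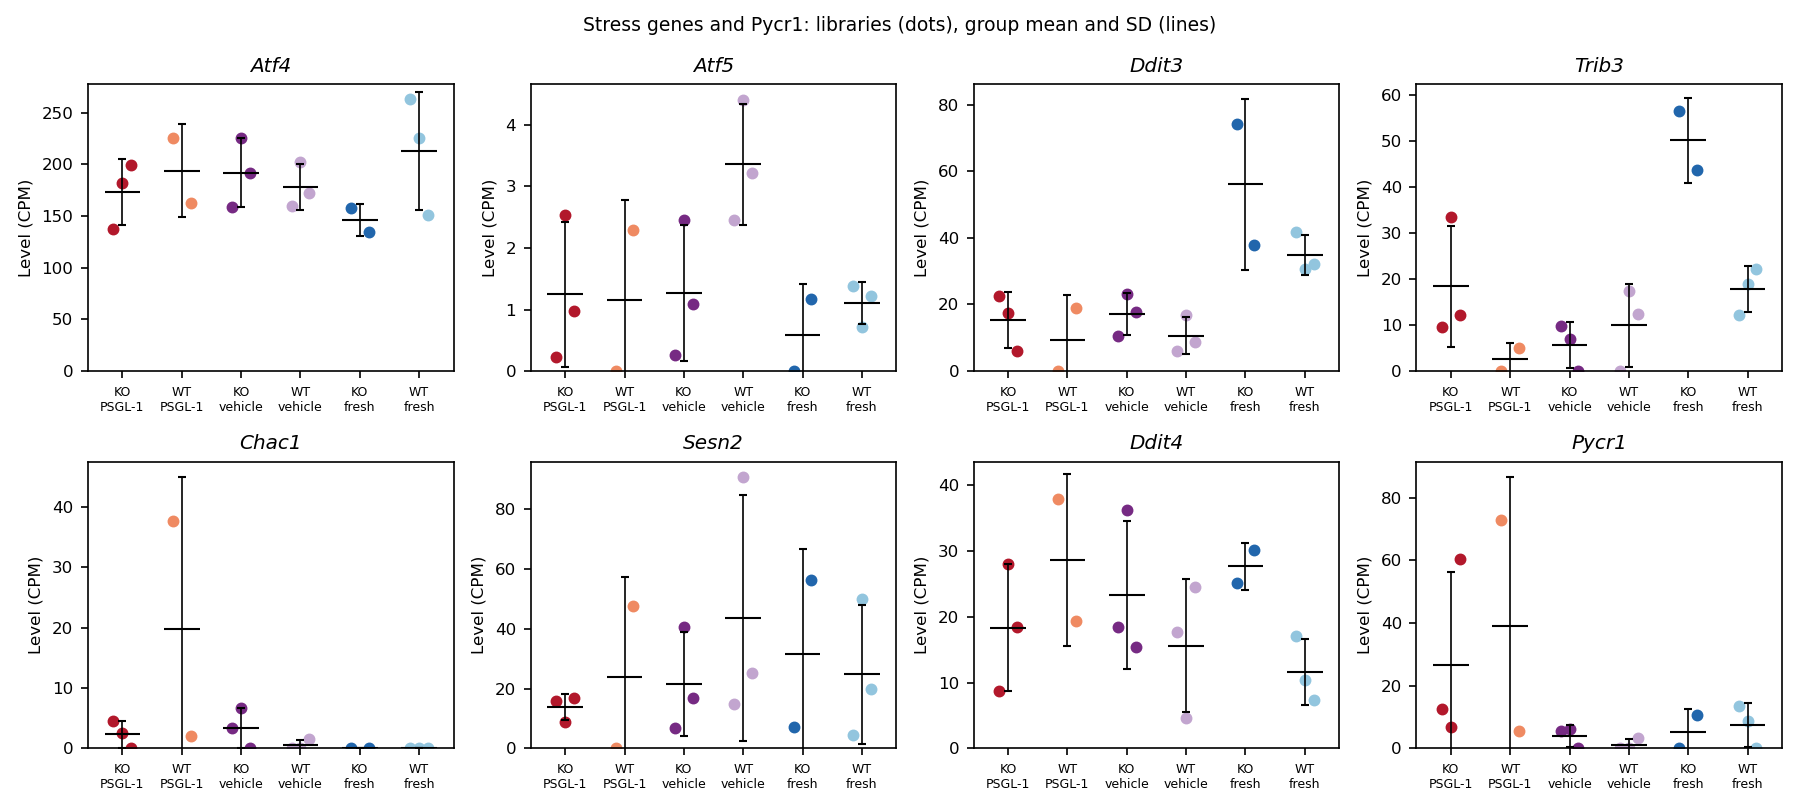
Level in CPM (vertical axis) of the stress members and Pycr1 by group (horizontal axis), with a dot per library and lines for the group mean and SD (cut at 0). Ddit3 is lower in every cultured library than in any fresh one, Chac1 is at 0 in all 5 fresh libraries, and Atf4 overlaps across groups.

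Other genes of the same pathway were counted in lists, on the mean of the genotypes. Of 8 genes for eIF2 alpha, its kinases with the activator Gcn1 and its phosphatase subunits, 1 rose and 1 fell, where 4.18% and 2.3% of all genes did. Ppp1r15a (GADD34), the stress-induced phosphatase subunit that reverses eIF2 alpha phosphorylation and a known ATF4 target, had 44.8, 47.6 and 56.1 CPM in KO vehicle libraries, against 129 and 239.6 CPM in KO fresh libraries, and 51.8, 33.7 and 48.7 CPM in WT vehicle libraries, against 207, 196 and 153 CPM in WT fresh libraries. All vehicle libraries were below all fresh ones (log2 fold change -1.90, SE 0.31, adjusted p = 0.0016). Eif2s1, which encodes eIF2 alpha, rose (log2 fold change 0.93, SE 0.22, adjusted p = 0.0206).

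Of 15 other ATF4 partners and targets tested, such as Cebpb, Slc7a11 and Gdf15, 0 passed by edgeR, with 4 at an unadjusted p under 0.05, where 2827 of all 14124 genes tested were. None of the 17 mitochondrial synthetases passed either (median log2 fold change -0.21, 1 at an unadjusted p under 0.05). For the phenylalanyl synthetase subunits Farsa and Farsb with the scaffolds of the multisynthetase complex, the count was 0 of 5 (median 0.45, 2 at an unadjusted p under 0.05). Among the folate and proline enzymes beyond the members, Mthfd1, the cytosolic folate enzyme, rose (log2 fold change 1.11, SE 0.26, adjusted p = 0.0164). Other amino acid transporters had 2 of 13 higher, the glutamine carrier Slc38a1 (log2 fold change 1.05, SE 0.21, adjusted p = 0.00738) and the taurine carrier Slc6a6 (log2 fold change 0.95, SE 0.20, adjusted p = 0.00825). Genes of amino acid sensing upstream of mTORC1 had 0 of 14 (median 0.02, 1 at an unadjusted p under 0.05).

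Some marker lists of other cells moved with culture too. Calls are on the mean of the genotypes, where 4.18% of all genes tested rose and 2.3% fell. The 9 granulocyte and monocyte markers summed to 201 to 247 CPM in KO vehicle libraries, against 1228 to 1326 CPM in KO fresh libraries, and to 123 to 413 CPM in WT vehicle libraries, against 759 to 796 CPM in WT fresh libraries, with 2 of 9 called lower (Lyz2 and Prtn3). The 10 erythroid markers summed to 634 to 761 CPM in KO vehicle libraries, against 1610 to 2461 CPM in KO fresh libraries, and to 1051 to 1198 CPM in WT vehicle libraries, against 2212 to 2867 CPM in WT fresh libraries. Of these, Hba-a1, Hbb-bt and Hbb-bs were at 0 throughout, 1 was called lower (Car2) and 1 higher (Tfrc, the transferrin receptor). The 7 B and plasma cell markers never summed to more than 62.0 CPM, with Ms4a1, Ebf1 and Jchain at 0 in all 16 libraries, and the 6 T and NK markers to no more than 91.8 CPM, with Cd3e, Cd3d, Cd8a and Ncr1 at 0. The 8 megakaryocyte and platelet markers summed to 636 to 1279 CPM with vehicle and 1052 to 1656 CPM fresh, with 2 called lower (Gp9 and Vwf), and the 7 endothelial and stromal markers to at most 81.7 CPM with vehicle and 136 CPM fresh, with none called. Among the HSC markers, Kit was called lower and Ly6a (Sca-1) higher. The part of these shifts in the rise of the synthetases and transporters was not tested.

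PSGL-1 was compared with vehicle within each genotype. No member passed the test in KO or in WT, and neither did any other gene (0% in each). At an unadjusted p under 0.05 there were 0 members in KO and 1 in WT (Rars), where 1.4% and 5.69% of all genes were, and DESeq2 and limma also called 0 members. The median log2 fold change over the members was -0.01 in KO and -0.16 in WT, against -0.00 and -0.11 over all genes tested. In WT the median was 0.14 without replicate 1 of the PSGL-1 group, the sparse library, and -0.47 without replicate 2, which leaves only the sparse one.

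The intervals show what sizes remain possible. In KO, the 95% interval of the PSGL-1 over vehicle log2 fold change was -0.48 to 0.52 for Aars, -0.43 to 0.80 for Slc7a1, -0.62 to 0.64 for Slc7a5, -0.69 to 0.37 for Atf4 and -0.89 to 0.80 for Vldlr. In WT it was -0.09 to 1.02 for Aars, -0.77 to 0.61 for Slc7a1, -0.57 to 0.83 for Slc7a5, -0.48 to 0.70 for Atf4 and -1.62 to 0.31 for Vldlr. A doubling, a log2 fold change of 1, thus lies outside the KO intervals of these 5 genes. They do not stand for all members, since the KO interval of Asns, given below, takes in a doubling.

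Asns had 126, 125 and 166 CPM in KO libraries with PSGL-1, against 80.6, 108 and 93.2 CPM in KO vehicle libraries, and 323 and 183 CPM in WT libraries with PSGL-1, against 126, 155 and 198 CPM in WT vehicle libraries. The KO groups did not overlap, as was so for 4.24% of all genes in that direction, and the WT groups did. Its log2 fold change was 0.56 in KO (95% interval -0.06 to 1.17, adjusted p = 1) and 0.64 in WT (-0.03 to 1.32, adjusted p = 0.774). Pycr1 also separated, with 12.5, 6.84 and 60.6 CPM in KO libraries with PSGL-1, against 5.67, 6.23 and 0 CPM in KO vehicle libraries, and 72.8 and 5.59 CPM in WT libraries with PSGL-1, against 0.0599, 0 and 3.21 CPM in WT vehicle libraries. Its spread was wide and it was not called (adjusted p = 1 in KO and 0.774 in WT). No member lay lower without overlap in KO (3.74% of all genes). In WT 5 members lay higher in both PSGL-1 libraries than in any vehicle library (Aars, Dars, Nars, Chac1 and Pycr1), where 5.87% of all genes did, and 6 lay lower (Gars, Lars, Rars, Wars, Atf5 and Vldlr), where 8.1% did. These WT counts rest on 2 PSGL-1 libraries, 1 of them the sparse one. The PSGL-1 response in KO minus that in WT called 0 members and 0% of all genes, with 1 member (Dars) at an unadjusted p under 0.05 against 4.33% of all genes.

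KO was then compared with WT in each state. No member passed in fresh cells, with vehicle or with PSGL-1, where 0.00708% of all genes did in each state (1 gene, Eno1b, higher in KO and named after its values were seen). At an unadjusted p under 0.05 there were 3 members in fresh cells, 2 with vehicle and 4 with PSGL-1, against 2.84%, 2.83% and 5.81% of all genes. The median log2 fold change of KO over WT over the members was -0.23 in fresh cells, -0.12 with vehicle and -0.01 with PSGL-1, against 0, 0 and 0.17 over all genes. In fresh cells 11 members lay above 0, where 48.8% of all genes did, and 27 below.

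Aars had the smallest p of the members between the genotypes in fresh cells, and Trib3 the largest log2 fold change (1.56, SE 2.01). For Aars the KO fresh libraries averaged 62.4 ± 4.23 CPM, against 154 ± 42.4 CPM for the WT fresh libraries (SD, n = 2 and 3), without overlap. Its log2 fold change was -1.25 (95% interval -1.84 to -0.67) with an adjusted p of 0.843 by edgeR, and DESeq2 gave -1.25 with an adjusted p of 0.00196. The vehicle libraries averaged 312 ± 38.9 CPM for KO, against 309.9 ± 58.6 CPM for WT (SD, 3 libraries each), a log2 fold change of -0.01 (95% interval -0.51 to 0.49). The culture response of Aars was 1.25 larger in KO on the log2 scale (SE 0.36, adjusted p = 1), a comparison that shares the fresh libraries with the first. Mars was likewise lower in fresh KO cells, averaging 68.2 ± 36 CPM, against 147 ± 29.7 CPM for WT (SD, n = 2 and 3, log2 fold change -1.09, 95% interval -1.87 to -0.31, adjusted p = 1).

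In all, 3 members were higher in both KO fresh libraries than in any WT fresh library (Gars, Trib3 and Ddit4), where 9.1% of all genes were, and 6 were lower (Aars, Lars, Mars, Phgdh, Slc7a1 and Slc3a2), where 9.95% were. With vehicle 1 member lay higher (Qars, 5.76% of all genes) and 4 lower (Wars, Atf5, Asns and Phgdh, 3.72%). With PSGL-1 the counts were 2 higher (Rars and Trib3, 11.5%) and 5 lower (Aars, Dars, Nars, Asns and Slc7a5, 6.32%). Asns was on the low side of KO over WT in both cultures, with log2 fold changes of -0.79 with vehicle (95% interval -1.40 to -0.17, adjusted p = 1) and -0.87 with PSGL-1 (-1.55 to -0.19, adjusted p = 0.765). Slc3a2 had 348, 314 and 256 CPM in KO libraries with PSGL-1 and 671 and 322 CPM in WT libraries with PSGL-1, where the sparse replicate 1 gave the highest of all (log2 fold change -0.71, adjusted p = 0.765). Leaving out either WT PSGL-1 library leaves the other alone in its group, so the calls of those fits are not given for this comparison.

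Over all 11 cultured libraries, with vehicle or PSGL-1, 7 members lay above every fresh library (Aars, Gars, Mthfd2, Slc7a1, Slc7a5, Slc1a5 and Vldlr), as did 2.03% of all genes, and 1 lay below (Ddit3), as did 3.46%. Mars, Wars and Yars separated from fresh with vehicle but not over all 11, and WT PSGL-1 replicate 1 had Yars at 9.61 CPM and Qars at 2.81 CPM, below every fresh library. Vldlr had 395, 325 and 445 CPM in KO libraries with PSGL-1 and 306 and 332 CPM in WT libraries with PSGL-1.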

How the data were processed

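RNA of sorted HSCs was amplified with the SMART Ultra-Low Input kit v4, per the labels' protocols. The submitters' processing notes name STAR 2.7.5c, featureCounts, MultiQC 1.10, DESeq2 and the mm10 build, without roles. The deposited values are raw read counts per gene for 16 libraries. For the annotation, strand setting and multi-mapping reads, the sources used here give nothing.

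Counts were tested with edgeR 4.0.16 (R 4.3.3) using TMM factors, the expression filter by group and robust quasi-likelihood fits, with 1 mean per group over all libraries. Adjusted p-values are Benjamini-Hochberg over 14124 genes. The mean of both genotypes gives KO and WT equal weight. CPM is the count over the library total, and intervals cover the spread between libraries. Counts within a group always differed by more than sampling noise (chi-square per degree of freedom at least 56.3). The members, pathway lists and marker lists were chosen with earlier results of these data known. Named genes are the called members, all stress members, and pathway genes that were called. Some genes of the pathway and marker lists are not reported here. The alternatives were DESeq2 1.42.0, limma 3.58.1 (voom with library quality weights), RLE factors, no filter, a filter of 5 CPM in 2 libraries, the compared groups alone, each library left out, and 2 replicate blocks. Promoter windows come from RefSeq (GRCm38.p6) and exon overlaps from GENCODE M21.

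On simulated counts with known changes in culture, the test on the mean of both genotypes recovered 10% of 2-fold, 42% of 4-fold, 58% of 8-fold and 64% of 16-fold changes among 13709 genes. In KO alone it recovered 2%, 16%, 26% and 44%, and in WT alone 2%, 20%, 36% and 42%. The changed genes were drawn from all but the lowest genes tested and not from the members. These rates therefore do not give the recovery for the members.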

Additional observations from a re-analysis of the deposited data

How the results depend on the processing

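The spread between libraries was large over all genes (common biological coefficient of variation 0.977). On simulated counts most 4-fold changes were missed on the mean of the genotypes and most 16-fold changes in a single genotype. Those changes were set in genes drawn from the whole series, so the rates are not those of the members. No value changed sign among the called members and comparisons under any alternative run. On the mean of both genotypes the 13 calls were kept under all 8 alternatives that leave no library out, and 9 of them (all but Asns, Iars, Nars and Wars) in all 16 fits that leave out 1 library, where the count ranged from 10 to 19.

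For vehicle over fresh in WT the count of 7 became 12 with DESeq2, 11 with limma, 4 with no filter, 3 with the compared groups alone, and 1 to 9 with 1 library left out. It was 2, 4 and 2 without WT vehicle replicates 1, 2 and 3, and 3, 1 and 2 without WT fresh replicates 1, 2 and 3. In KO the count of 4 became 9 with DESeq2 and 2 to 8 with 1 library left out, 2 without KO fresh replicate 1. The shares of all genes called in these other fits are not given here. The counts thus cannot show whether the members alone moved or all genes did. The cause of these moves was not tested. KO over WT in fresh cells gave 1 call with DESeq2 (Aars) and 0 otherwise. PSGL-1 over vehicle in WT, the PSGL-1 response in KO minus WT and KO over WT with PSGL-1 gave calls only without WT PSGL-1 replicate 2. That fit leaves the sparse library alone in its group, assumed to vary like the others, so its counts are not given. The remaining counts were 0 throughout.

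Same-numbered libraries did not deviate together: the correlation of deviations was -0.0721 to 0.0759 over 36 pairs by title number and -0.0722 to 0.1004 by library number in runs of 6. As a replicate block, the title numbers gave 4 calls in WT, 5 in KO and 13 on the mean, and the runs of 6 gave 4, 4 and 14.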

Other observations

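Genes of the unfolded protein response, such as chaperones of the endoplasmic reticulum and Xbp1, were also counted. These counts are for vehicle culture over fresh on the mean of the genotypes. Of 14 genes tested, 4 rose and 0 fell, where 4.18% and 2.3% of all genes did. Sdf2l1, a chaperone cofactor, had 210.0, 156 and 169.8 CPM in KO vehicle libraries, against 46.5 and 31.6 CPM in KO fresh libraries, and 156, 191 and 243 CPM in WT vehicle libraries, against 75.9, 35.2 and 56.8 CPM in WT fresh libraries (log2 fold change 2.06, SE 0.31, adjusted p = 0.000826). The chaperone Hspa5 (BiP) rose less (log2 fold change 0.72, SE 0.19, adjusted p = 0.0325), as did the disulfide isomerase Pdia6 (log2 fold change 0.73, SE 0.14, adjusted p = 0.00428), and Edem1, which targets misfolded glycoproteins for degradation, rose too (log2 fold change 1.20, SE 0.31, adjusted p = 0.0288). Xbp1 had a log2 fold change of -0.01 (SE 0.22, adjusted p = 1), and its splicing cannot be read from gene counts.

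Vldlr was not alone among lipoprotein receptors. Lrp8, a close relative of Vldlr, rose (log2 fold change 2.23, SE 0.33, adjusted p = 0.000802), and so did Scarb1, the HDL receptor (log2 fold change 1.24, SE 0.23, adjusted p = 0.00383). Lrp8 had 69.8, 109 and 68.1 CPM in KO vehicle libraries, against 8.88 and 20.2 CPM in KO fresh libraries, and 111, 187 and 101 CPM in WT vehicle libraries, against 29.4, 54.3 and 30.5 CPM in WT fresh libraries. No vehicle library of Lrp8 overlapped a fresh one. The lists hold genes chosen with earlier results of these data known.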
